A study of Mus musculus with 8 samples.

Results

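PERK knockdown P19 cells were compared with negative control P19 cells by small RNA sequencing, using 2 of the 8 libraries of the series and every one of the 696 mature miRNAs listed for that pair. P19 is a mouse embryonal carcinoma line, that is, tumour-derived stem cells that resemble the early embryo and can be driven to neurons or muscle in culture. The control cells (labelled shNC) carried a negative control short hairpin RNA and the knockdown cells (labelled shPerk) a short hairpin RNA against Perk. The labels give no day, medium or state of induction for either culture, each group is a single library, and Perk mRNA and protein were not measured in these small RNA libraries, so that the knockdown itself cannot be checked here. The other 6 libraries came from C2C12 mouse myoblasts; the 4 of them with the same pair of hairpins, at day 0 and day 3 of differentiation, are set beside the P19 pair further on.

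PERK is a kinase of the endoplasmic reticulum membrane and a sensor of the unfolded protein response: when unfolded proteins accumulate, it phosphorylates the translation factor eIF2α, which lowers general translation and favours translation of the transcription factor ATF4. miRNAs are small RNAs cut from the arms of RNA hairpins (the 5p and the 3p arm) that repress messenger RNAs matching their seed, bases 2 to 8 of the mature sequence. Mouse pluripotent cells are known for the miR-290 cluster (miR-290 to miR-295) and the miR-302 cluster (miR-302a to miR-302d and miR-367), whose main 3p products share a seed, while the large imprinted Dlk1-Dio3 region makes many miRNAs from the maternally inherited chromosome.

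The mature sequences that the results turn on are printed from RefSeq (GRCm38) in the 5′ to 3′ direction, with the seed in capitals. The first set is shown because these abundant 3p products of the miR-302 and miR-290 clusters carry the same seed, apart from miR-302c-3p, whose sequence starts 1 base later, and miR-293-3p. The RefSeq table used holds no entry for miR-302a-3p and miR-292a-3p.
miR-302b-3p: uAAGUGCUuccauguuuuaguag
miR-302d-3p: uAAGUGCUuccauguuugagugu
miR-302c-3p: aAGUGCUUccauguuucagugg
miR-291a-3p: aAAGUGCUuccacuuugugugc
miR-294-3p: aAAGUGCUucccuuuugugugu
miR-295-3p: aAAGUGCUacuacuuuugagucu
miR-293-3p: aGUGCCGCagaguuuguagugu

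The second set is shown because these miRNAs, from 1 genomic region on chromosome 12, were among those that fell furthest or held the most RPM, and none of the 4 shares a seed with another.
miR-127-3p: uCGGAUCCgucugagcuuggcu
miR-433-3p: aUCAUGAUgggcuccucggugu
miR-485-3p: aGUCAUACacggcucuccucuc
miR-323-3p: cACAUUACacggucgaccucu

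The last set holds some of the miRNAs outside the pluripotency clusters that were higher in the PERK knockdown library: members of the miR-200 family with its 2 seeds, the miR-183 cluster and miR-148a-3p.
miR-200b-3p: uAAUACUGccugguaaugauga
miR-429-3p: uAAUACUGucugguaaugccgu
miR-200a-3p: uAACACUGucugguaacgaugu
miR-182-5p: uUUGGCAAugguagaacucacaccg
miR-183-5p: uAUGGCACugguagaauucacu
miR-96-5p: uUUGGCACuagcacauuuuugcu
miR-148a-3p: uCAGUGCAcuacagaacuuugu

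Levels are given in RPM, reads scaled to a fixed total of miRNA reads in each library, and values under 1 RPM are listed at 0. Of the 696 miRNAs, 680 were above 0 in both libraries, and the other 16 were listed at 0 in one of them, with at most 18.6 RPM in the other. Low values fell on whole multiples of a fixed step, from which 1 RPM was put at 7.92 reads in the shNC library and 4.46 reads in the shPerk library; a value of 100 RPM then has a counting error of 3.55% and 4.74%. Such errors cover counting only. With 1 library a group there was no test between groups: log2 fold changes were computed after TMM scaling of the RPM values, and the call of higher or lower was made beyond 1 in size.

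The PERK knockdown library was more concentrated than the control library. Its 10 most abundant miRNAs made up 61.0% of the RPM against 40.3% in shNC, and the most abundant, miR-302b-3p, 18.1% against 7.65% for the same miRNA in shNC. RPM values share a fixed total. The log2 fold changes of all miRNAs had a median of -0.65 in RPM as deposited and -0.06 after TMM scaling. The part of the fixed total in the lower median was not tested. After scaling, 123 miRNAs were higher (17.7% of 696) and 124 lower (17.8%), whereas in RPM as deposited 46 were higher (6.61%) and 247 lower (35.5%). Both readings are given for the main lists. Across the 573 miRNAs with a sequence, the log2 fold change and the GC content had a Spearman correlation of -0.21, a description over miRNAs that all come from the same pair of libraries.

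**Figure D1:**
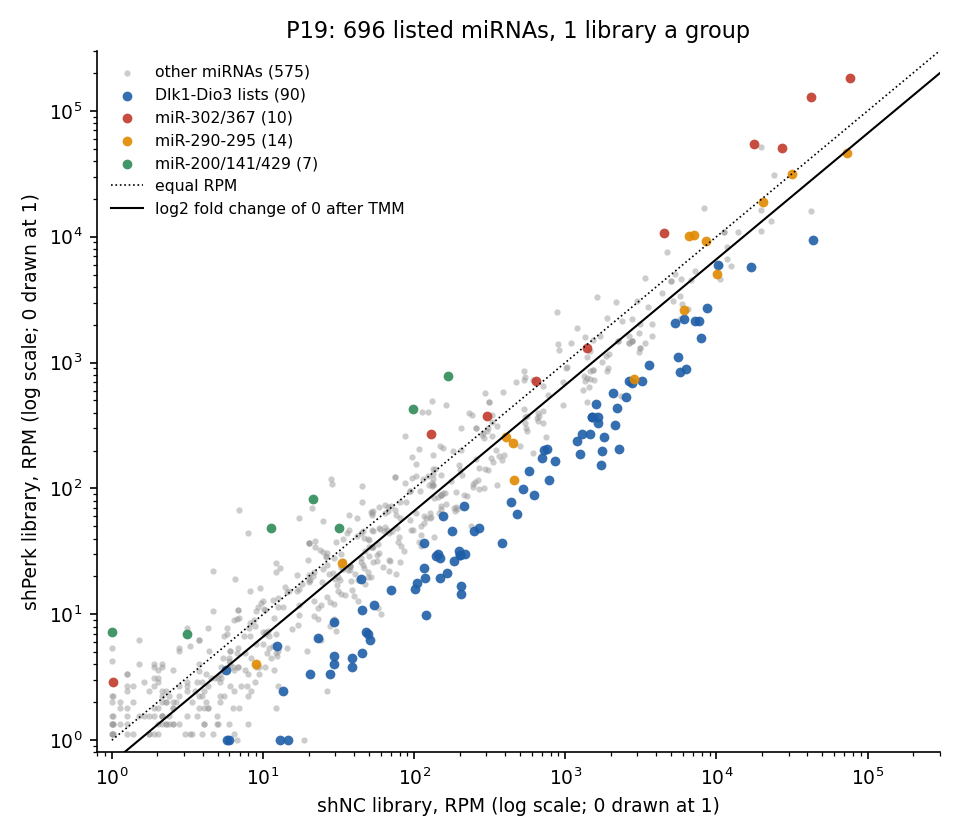
Level of each listed miRNA in the control library (x axis) and the PERK knockdown library (y axis), both in RPM on log scales with values listed at 0 drawn at 1; 1 point is 1 miRNA, coloured by list. The Dlk1-Dio3 miRNAs lie below both reference lines, the abundant miR-302 cluster miRNAs and the miR-200 family above both, and the miR-290 cluster miRNAs on either side of them.

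The miR-302 cluster was higher in PERK knockdown P19 cells. It lies at chr3:127545238-127545800 on the plus strand (GRCm38), within an intron of Larp7 on the opposite strand. Its 10 listed miRNAs together went from 17.0% of the control library to 42.8% of the knockdown library; the 95% Wilson intervals at the depths these steps give, 17.0% to 17.1% and 42.8% to 42.9%, cover counting error only, and these depths were only inferred from the values. The limit was passed upwards by 7 of the 10 members and downwards by 0, against 17.7% of all miRNAs called higher, and the median was 1.74 on the log2 scale. In RPM as deposited 6 of 10 were higher and the median was 1.15. As in any bulk library, more cells that make a miRNA and more of it per cell cannot be told apart.

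The 3p products held most of that share, led by miR-302b-3p and miR-302d-3p, which carry the shared seed. miR-302b-3p stood at 76522 RPM in shNC and 180818 RPM in shPerk (log2 fold change 1.83). miR-302d-3p stood at 42087 and 129217 RPM (log2 fold change 2.21). miR-302a-3p stood at 17713 and 54730 RPM (log2 fold change 2.22). These 3 were also called higher in RPM as deposited, with log2 fold changes of 1.24, 1.62 and 1.63. miR-302c-3p was less abundant, at 4502 and 10616 RPM, and its log2 fold change was 1.83. miR-367-3p, which has another seed, shared with miR-92a-3p and miR-25-3p, was at 129 and 269 RPM (log2 fold change 1.65).

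The 5p products of the same hairpins moved less. miR-302a-5p, the abundant one, was at 27182 RPM in shNC and 50322 RPM in shPerk (log2 fold change 1.48), and fell short of the limit in RPM as deposited at 0.89. miR-302b-5p, miR-302d-5p and miR-302c-5p had log2 fold changes of 0.90, 0.74 and 0.50 and were not called. For miR-302c-5p, at 1381 and 1295 RPM, the direction turns to -0.09 in RPM as deposited. miR-367-5p, at 1.01 and 2.92 RPM, was called higher but is near the lowest value listed.

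The miR-290 cluster did not move as a block. It lies at chr7:3218639-3220837 on the plus strand, with the hairpins from miR-291a to miR-295, but not miR-290a, opposite an exon of Nlrp12. Its 14 listed miRNAs made up 16.8% of the control library and 13.5% of the knockdown library. After scaling, 2 members passed the limit upwards and 2 downwards; the median was -0.08 on the log2 scale. In RPM as deposited 0 were higher and 5 lower, with a median of -0.67. Of all miRNAs, 17.7% were called higher and 17.8% lower after scaling, and 6.61% and 35.5% in RPM as deposited. The median of all miRNAs was nearly the same on each scale, -0.06 and -0.65.

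Within the miR-290 cluster hairpins the 2 arms parted. miR-291a-3p was at 7146 RPM in shNC and 10312 RPM in shPerk (log2 fold change 1.12), whereas miR-291a-5p went from 6092 to 2606 RPM (log2 fold change -0.63). miR-294-3p was at 8488 and 9272 RPM (log2 fold change 0.72), and miR-294-5p at 457 and 116 RPM (log2 fold change -1.38). miR-292a-3p was at 6557 and 10145 RPM (log2 fold change 1.22), and miR-292a-5p, the most abundant member in shNC, at 73206 and 46216 RPM (log2 fold change -0.07). In each of these 3 hairpins the 3p arm gained on the 5p arm. In RPM as deposited miR-291a-3p and miR-292a-3p, at 0.53 and 0.63, were short of the limit. miR-293-3p, at 31614 and 31218 RPM, and miR-295-3p, at 20160 and 18752 RPM, were not called, with log2 fold changes of 0.57 and 0.49 (-0.02 and -0.10 in RPM as deposited), and their 5p arms had lower ones, -0.41 and -0.08. miR-290a-5p, one of the 2 members called lower, went from 2860 to 742 RPM (log2 fold change -1.35).

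The difference between the arms of a hairpin is free of the scaling, because both arms were read in the same library. Of the 10 hairpins of the miR-302 and miR-290 clusters with both arms listed and a mean of at least 10 RPM each, the 5p arm had the lower log2 fold change in 10, with a median of 5p minus 3p of -1.31. The 2 hairpins of the clusters with an arm below that level went the other way, miR-291b with 0.16 and miR-367 with 0.47. The 5p arm was the lower in 9 of 9 hairpins at 100 RPM or more, with a median of -1.29. Over all 142 hairpins with arms at 10 RPM or more, the 5p arm was the lower in 63, and the median of 5p minus 3p was 0.06. The widest gap of the cluster hairpins was 2.10 on the log2 scale, in miR-294, which is also the widest of the 142. These hairpins were read in 1 pair of libraries, and their differences have no replicate check.

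**Figure D2:**
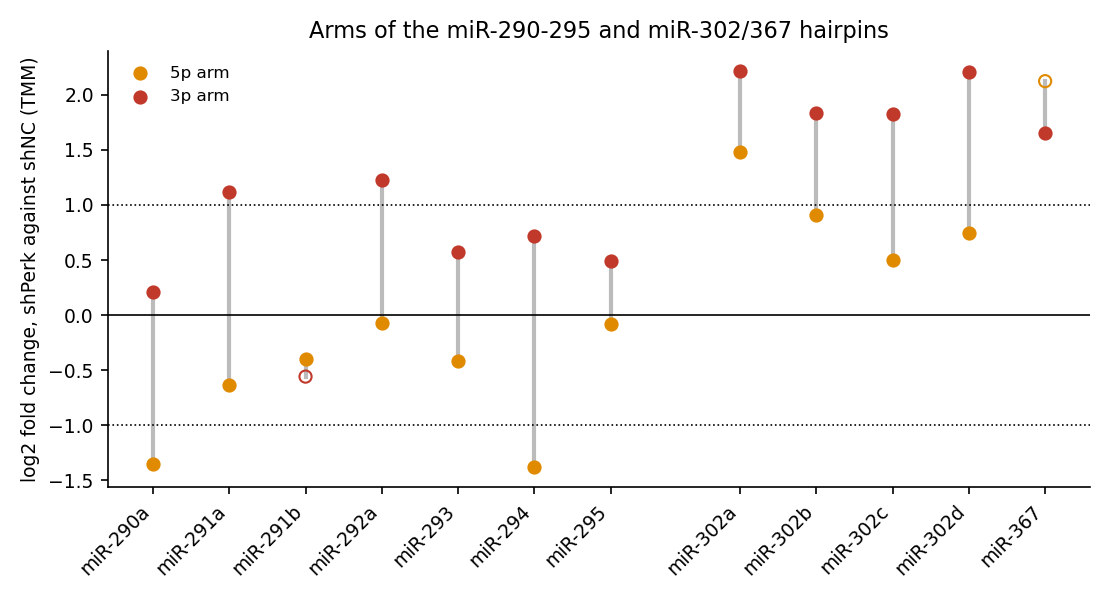
Log2 fold change after TMM scaling (y axis) of the 5p and the 3p arm of each listed hairpin of the 2 clusters (x axis), joined by a grey bar; open circles have a mean under 10 RPM, and dotted lines mark the limits of 1 and -1. In the 10 hairpins drawn with 2 filled circles the 3p arm lies above the 5p arm, by 0.57 to 2.10.

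Grouped by seed, the seed AAGUGCU took up a larger part of the knockdown library. Its 5 miRNAs with a RefSeq sequence, miR-302b-3p, miR-302d-3p, miR-291a-3p, miR-294-3p and miR-295-3p, made up 15.4% of shNC and 34.8% of shPerk. This was the highest share of any seed in both, among the 573 miRNAs with a sequence. miRNAs without one, such as miR-302a-3p at 17713 and 54730 RPM, are in none of these sums. The seed CUCAAAC of miR-290a-5p, miR-292a-5p and miR-293-5p held 8.61% and 5.20%. The seed AAAGUGC of the miR-17 and miR-106 products, which reads like the embryonic seed with a shift of 1 base, held 5.65% and 3.27%. The seed CAGUGCA of miR-148a-3p and its relatives moved from rank 9, at 2.46%, to rank 2, at 5.48%. The seed CGGAUCC of miR-127-3p moved from rank 5, at 4.36%, to rank 14, at 0.945%.

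The Dlk1-Dio3 miRNAs were lower in PERK knockdown P19 cells across the whole region. This imprinted domain runs between the protein-coding genes Dlk1 and Dio3 on chromosome 12 and expresses from the maternal copy the non-coding RNAs Meg3, Rian and Mirg along with the miRNAs. The 88 miRNAs placed at a single position there, from 109563710 to 109747949 (GRCm38), had log2 fold changes below 0 in 88 of 88, also in RPM as deposited. After scaling, 79 were called lower, against 17.8% of all miRNAs, and in RPM as deposited 86, against 35.5%. The median log2 fold change was -1.81, with quartiles of -2.21 and -1.42, and -2.41 in RPM as deposited. Their share of the library was 18.4% in shNC and 4.75% in shPerk, and 5 of them were listed at 0 in shPerk, from 5.81 to 18.6 RPM in shNC.

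The calls were spread over the 3 blocks of the region. The upstream block, from miR-770 within an exon of Meg3 to miR-136 opposite Rtl1, held 21 miRNAs, with 19 called lower and a median of -1.87. The middle block within Rian held 5, with 4 called lower and a median of -1.97, but only 2 of the 5 had a mean of at least 100 RPM, with 1 called lower and a median of -1.15. The downstream block, the miR-379/410 cluster that ends in Mirg, held 62, with 56 called lower and a median of -1.76. Among the 18 groups of neighbouring hairpins found in the genome (at least 3 hairpins, at most 10000 bases apart), these 3 had the 3 lowest medians, and the next lowest, with miR-23b and miR-27b on chromosome 13, had -0.68. Of the 605 miRNAs outside the region, 42 (6.94%) were lower beyond the limit and 123 higher, and their median was 0.15 after scaling and -0.44 in RPM as deposited.

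**Figure D3:**
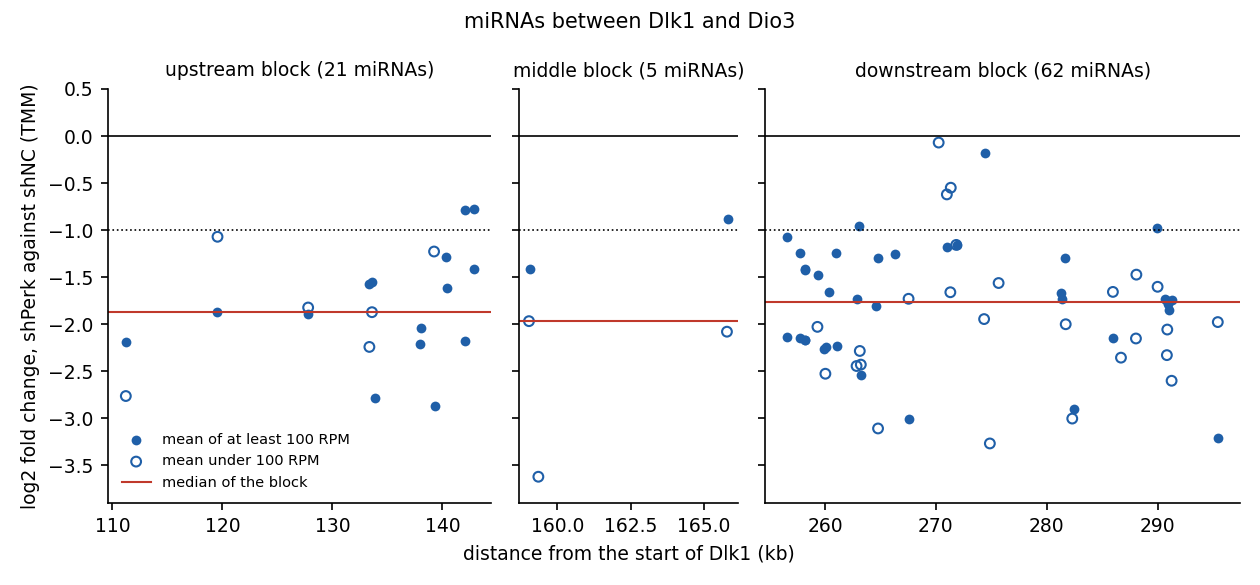
Log2 fold change after TMM scaling (y axis) of the 88 Dlk1-Dio3 miRNAs against the distance in kb from the start of Dlk1 (x axis, 1 panel for each block); filled points have a mean of at least 100 RPM, red lines are block medians, and the dotted line marks -1. The 88 points lie below 0, with block medians of -1.87, -1.97 and -1.76.

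The most abundant of them was miR-127-3p, processed from the transcript antisense to Rtl1, the retrotransposon-derived gene needed in the placenta. It was at 43643 RPM in shNC and 9452 RPM in shPerk (log2 fold change -1.61). miR-433-3p, from the same antisense transcript, went from 2257 to 205 RPM (log2 fold change -2.87). miR-431-5p, next to it, went from 1794 to 257 RPM (log2 fold change -2.21). The list of miRNAs antisense to Rtl1 and nearby holds these and others, such as miR-770 within Meg3 and miR-341 and miR-370 within Rian. Its 25 listed members, which overlap the 88 above, had log2 fold changes below 0 in 25, 22 were called lower (25 in RPM as deposited), and the median was -1.87. Of all miRNAs, 17.8% were called lower (35.5% in RPM as deposited). The 25 members summed to 7.62% of shNC and 1.76% of shPerk.

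In the miR-379/410 cluster, a list that overlaps the 88 above, 59 of 65 listed miRNAs were called lower (63 in RPM as deposited), with a median of -1.78. Of all miRNAs, 17.8% were called lower (35.5% in RPM as deposited). Of the 65, 4 were listed at 0 in shPerk, and so entered through shNC alone. The sum went from 10.8% to 3.01%. miR-485-3p, within an exon of Mirg, went from 1729 to 153 RPM (log2 fold change -2.91). miR-323-3p went from 6322 to 889 RPM (log2 fold change -2.24). miR-1193-3p went from 1738 to 197 RPM (log2 fold change -2.55). At a mean of 100 RPM or more, the 12 miRNAs with the largest falls all came from Dlk1-Dio3, from -2.19 for miR-770-3p to -3.21 for miR-3072-3p, which went from 203 to 14.6 RPM. The others were miR-667-3p, miR-665-3p, miR-487b-3p, miR-1197-3p and miR-329-3p, with log2 fold changes of -3.01, -2.79, -2.34, -2.26 and -2.23.

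A few members of the region stood apart from that range. miR-381-3p, at 10220 RPM in shNC and 5968 RPM in shPerk, had a log2 fold change of -0.18 and was not called on either scale. miR-541-5p, the most abundant of the miR-379/410 list, went from 16971 to 5710 RPM (log2 fold change -0.98), and this misses the limit. miR-370-3p, in the middle block, went from 6124 to 2202 RPM (log2 fold change -0.88). Both of the latter were called lower in RPM as deposited, at -1.57 and -1.48. miR-299a and miR-299b lie on opposite strands of the same site and had nearly the same values, so that their reads cannot be told apart.

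Between the arms of Dlk1-Dio3 hairpins the counts depended on the level asked for. Of 34 hairpins with both arms at 10 RPM or more, miR-299a and miR-299b among them, the 5p arm was the lower in 14, and the median of 5p minus 3p was 0.06. At 100 RPM or more, again with miR-299a and miR-299b, the 5p arm was the lower in 3 of 13, with a median of 0.33.

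The miR-200 family was higher in the PERK knockdown library, at low levels. These miRNAs, known for holding epithelial cells in their state by repressing Zeb1 and Zeb2, come from 2 loci: miR-200b, miR-200a and miR-429 at chr4:156053916-156055742 within an intron of Ttll10, and miR-200c with miR-141 on chromosome 6. miR-200b-3p was at 166 RPM in shNC and 780 RPM in shPerk (log2 fold change 2.82). miR-200a-3p was at 97.9 and 427 RPM (log2 fold change 2.72). miR-429-3p, with the seed of miR-200b-3p, was at 21.4 and 82.1 RPM (log2 fold change 2.54). All 7 listed members were called higher, 6 of them also in RPM as deposited, the exception being miR-200c-3p at 31.6 and 48.5 RPM. Over all miRNAs, 17.7% were called higher and 6.61% in RPM as deposited. miR-141-3p was listed at 0 in shNC and at 7.18 RPM in shPerk. The family summed to 332 RPM in shNC and 1400 RPM in shPerk, and its median log2 fold change, 2.69, was the highest of the 28 lists (2.10 in RPM as deposited).

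The miR-183 cluster, on the minus strand of chromosome 6 and known from sensory organs, gained in its 3 main products. miR-182-5p was at 8214 RPM in shNC and 16854 RPM in shPerk (log2 fold change 1.63). miR-183-5p was at 4722 and 7509 RPM (log2 fold change 1.26), and this falls to 0.67 in RPM as deposited. miR-96-5p was at 886 and 2543 RPM (log2 fold change 2.11). The 3 other arms of these hairpins, with at most 42.2 RPM, were not called after scaling, but 2 of them, miR-183-3p and miR-96-3p, were called lower in RPM as deposited.

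Among single miRNAs, miR-148a-3p added most RPM outside the miR-302 cluster. It was at 19730 RPM in shNC and 51302 RPM in shPerk (log2 fold change 1.97, and 1.38 in RPM as deposited), whereas its relatives with the same seed, miR-148b-3p at 3546 and 2752 RPM and miR-152-3p at 1322 and 780 RPM, were not called. miR-10b-5p, from an intron of Hoxd3 and Hoxd4, went from 1617 to 3340 RPM (log2 fold change 1.64). miR-10a-5p, with 655 and 343 RPM, had -0.34. miR-196b-5p, also from a Hox cluster, went from 6.95 to 67.5 RPM (log2 fold change 3.87). The other miRNAs among the 12 largest rises at a mean of 100 RPM or more were miR-3535, miR-3473e, miR-192-5p, miR-455-5p and miR-3473b, from 2.11 to 2.49. miR-3535 overlaps a small nucleolar RNA within an exon of Ncl.

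Other abundant families had medians nearer to that of all miRNAs. The 27 miRNAs of the miR-17-92, miR-106a-363 and miR-106b-25 clusters, known for promoting the cell cycle, had 0 members called in either direction after scaling, with a median of -0.22, but 11 called lower in RPM as deposited, with a median of -0.81. miR-92a-3p, the largest of them, was at 41884 RPM in shNC and 15926 RPM in shPerk (log2 fold change -0.80). Of 64 miRNAs from the Sfmbt2 intron, a rodent cluster, 2 passed the limit upwards and 0 downwards, and the median was 0.07 (0 and 7 in RPM as deposited, median -0.53). The let-7 family, which accumulates when stem cells differentiate, summed to 939 RPM in shNC and 851 RPM in shPerk, with 4 of 14 called higher and 0 lower (0 and 5 in RPM as deposited). For these lists the shares over all miRNAs were 17.7% higher and 17.8% lower, and 6.61% and 35.5% in RPM as deposited.

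miRNAs known from neurons did not share a direction: of 18, 5 were called higher and 2 lower (3 and 6 in RPM as deposited). Of all miRNAs, 17.7% were called higher and 17.8% lower (6.61% and 35.5% in RPM as deposited). The 2 called lower after scaling were both arms of miR-124, a neuron-enriched miRNA: miR-124-3p went from 198 to 29.6 RPM (log2 fold change -2.15), and miR-124-5p from 236 to 50.5 RPM, -1.64. miR-9-5p, made in neural progenitors, was at 3359 and 1429 RPM (log2 fold change -0.64), and this was past the limit in RPM as deposited. miR-218-5p, of motor neurons, went from 2177 to 3019 RPM (log2 fold change 1.06, and 0.47 in RPM as deposited). The other members called higher had at most 207 RPM in both libraries.

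Of 16 miRNAs tied to the unfolded protein response, 3 passed the limit upwards, near the 17.7% of all miRNAs, and 0 downwards, and the median was 0.54 (1 and 0 in RPM as deposited, median -0.05). miR-708-5p, hosted by Tenm4 (Odz4) and known as a target of the PERK branch factor CHOP, was at 1348 RPM in shNC and 708 RPM in shPerk (log2 fold change -0.34). miR-34c-5p was at 1095 and 1419 RPM (log2 fold change 0.97). The whole list summed to 4269 and 3811 RPM.

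**Figure D4:**
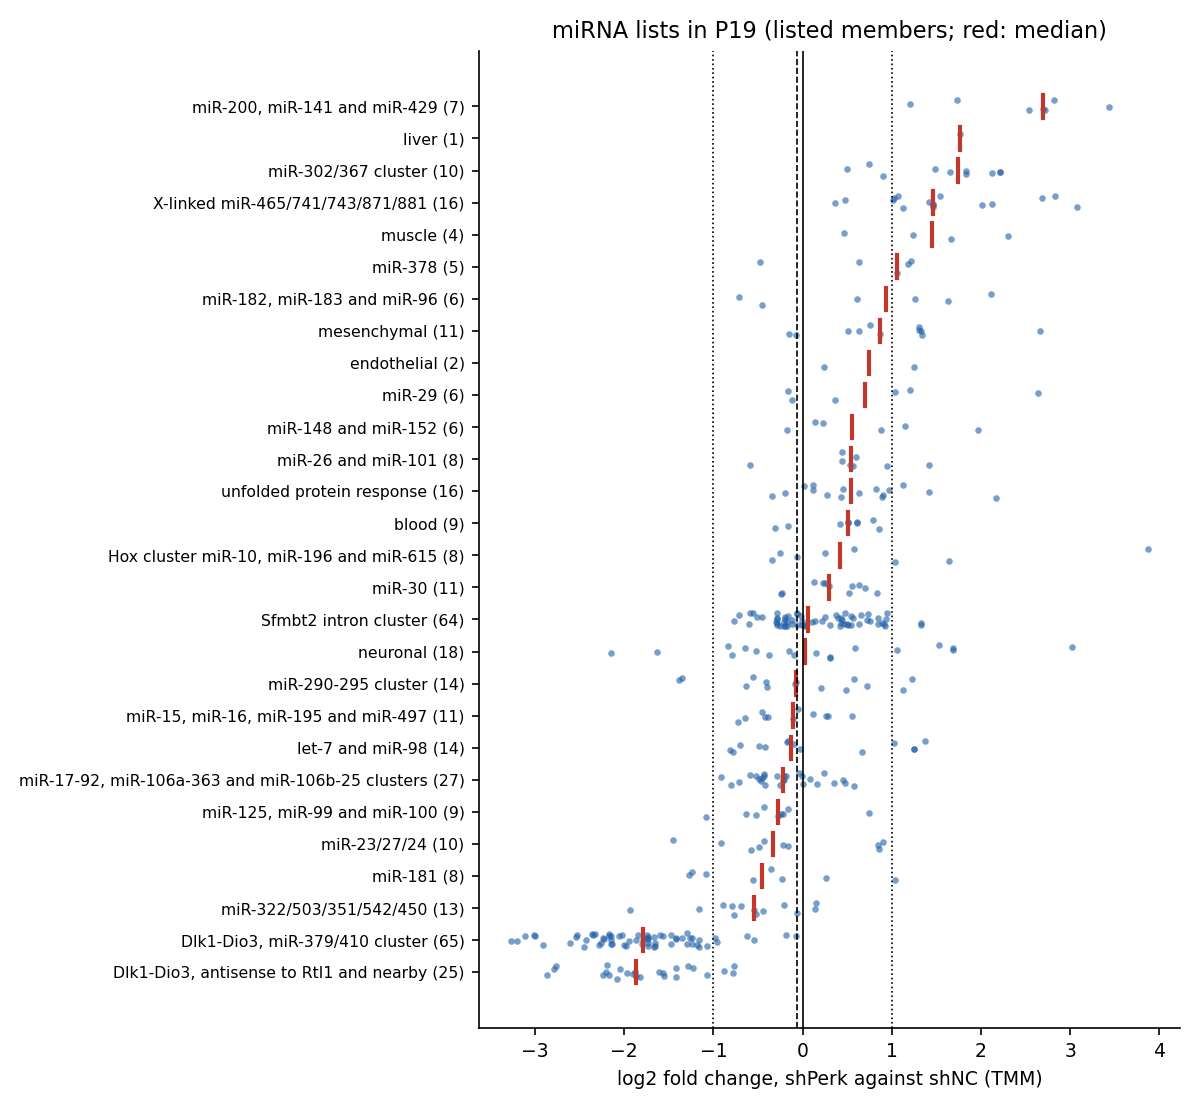
Log2 fold change after TMM scaling (x axis) of every listed member of the 28 miRNA lists (y axis, with the number of members), with a red bar at each median; members listed at 0 in 1 library were set to 1 RPM, the dashed line is the median of all 696 miRNAs and dotted lines mark the limits. The 2 Dlk1-Dio3 lists sit lowest, at -1.87 and -1.78, and the miR-200 family highest, at 2.69.

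Most markers of other cell types were scarce. The 4 listed muscle miRNAs summed to 51.9 RPM in shNC and 113 RPM in shPerk, with 3 called higher (2 in RPM as deposited); miR-1a-3p was at 21.2 and 69.6 RPM and miR-133a-3p at 12.1 and 25.6 RPM. The liver miRNA miR-122-5p was at 4.67 and 10.6 RPM. The 9 blood miRNAs summed to 373 and 317 RPM with 0 called, and the 11 mesenchymal ones to 6210 and 5848 RPM with 5 called higher (1 in RPM as deposited), miR-21a-5p making up 5301 and 5024 RPM of it. Over all miRNAs, 17.7% were called higher (6.61% in RPM as deposited). Endothelial miR-126a-3p was at 1194 and 1883 RPM (log2 fold change 1.25, and 0.66 in RPM as deposited). Their part in the results above was not tested.

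Beside the C2C12 pairs, the leading P19 changes could not be followed, because the C2C12 libraries held hardly any reads of these miRNAs. Those pairs were deposited as read counts, with 8800977 to 11993448 reads a library. The miR-302 cluster list had at most 1 read, the miR-290 cluster list at most 17 and the 2 Dlk1-Dio3 lists at most 60 in any of the 4 libraries. The P19 fold changes and those of C2C12 come from different controls and different units, and they are given side by side only.

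Some lists were measured in all 3 pairs. miR-148a-3p was higher in each: its log2 fold change was 1.97 in P19, 3.31 in C2C12 at day 0 (6538 and 45125 reads) and 3.43 at day 3 (21323 and 149882 reads). The miR-183 cluster, higher in P19 in its 3 main products, had 4 of 6 members called lower in C2C12 at day 0, with a median of -1.37, against 19.9% of the 602 miRNAs tested, and 2 of 6 at day 3, with a median of -0.90, against 23.8% of 575. With C2C12 libraries scaled to their totals in place of TMM, 4 of 6 were called lower at day 3, with a median of -1.16. The miR-378 family, whose miR-378a hairpin lies in the metabolic regulator gene Ppargc1b, was called higher in 3 of 5 members in P19 (0 of 5 in RPM as deposited) and lower in 4 and 2 of 5 in C2C12. In P19, 17.7% of all miRNAs were called higher (6.61% in RPM as deposited). The cell-cycle clusters miR-17-92, miR-106a-363 and miR-106b-25 had medians of -0.22 in P19, -0.79 at day 0 and -0.90 at day 3. The test of a difference between the cell lines was not possible with 1 library a group.

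The X-linked miR-465 to miR-881 list, miRNAs best known from testis, was higher in all 3 pairs, but near the lowest values in P19. There it summed to 114 RPM in shNC and 253 RPM in shPerk, with 14 of 16 listed members called higher after scaling and 5 of 16 in RPM as deposited. The shares over all miRNAs in P19 were 17.7% and 6.61%. Of the 16 members, 2 were listed at 0 in shNC and set to 1 RPM, so that their log2 fold changes could only be above 0. miR-881-3p, with the largest fold among members above 0 in both libraries, was at 7.96 and 44.4 RPM. The 3p products of miR-465a, miR-465b and miR-465c shared identical values, 20.2 and 37.0 RPM, so that their reads cannot be told apart. In C2C12, 27 of 27 tested members were called higher at day 0 and 26 of 26 at day 3, against 16.6% and 21.2% of the miRNAs tested. A miRNA was tested with at least 1 CPM in either library of the pair, so a member scarce in shNC could enter through shPerk alone. Of 464 miRNAs above 0 in P19 and tested at both days in C2C12, 24 were beyond the limit in the same direction in all 3 pairs, 18 higher and 6 lower, and 9 were beyond it in P19 and the opposite way at both days in C2C12. Most of the 18 were members of this X-linked list, the 3p products of miR-465a, miR-465b and miR-465c among them. With P19 in RPM as deposited the same-direction counts were 5 higher and 22 lower, and the opposite-direction count was 1 higher and 8 lower in P19. Over the miRNAs compared, the P19 and C2C12 log2 fold changes had a Spearman correlation of 0.05 at day 0 (475 miRNAs). At day 3 it was 0.22 (462 miRNAs).

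**Figure D5:**
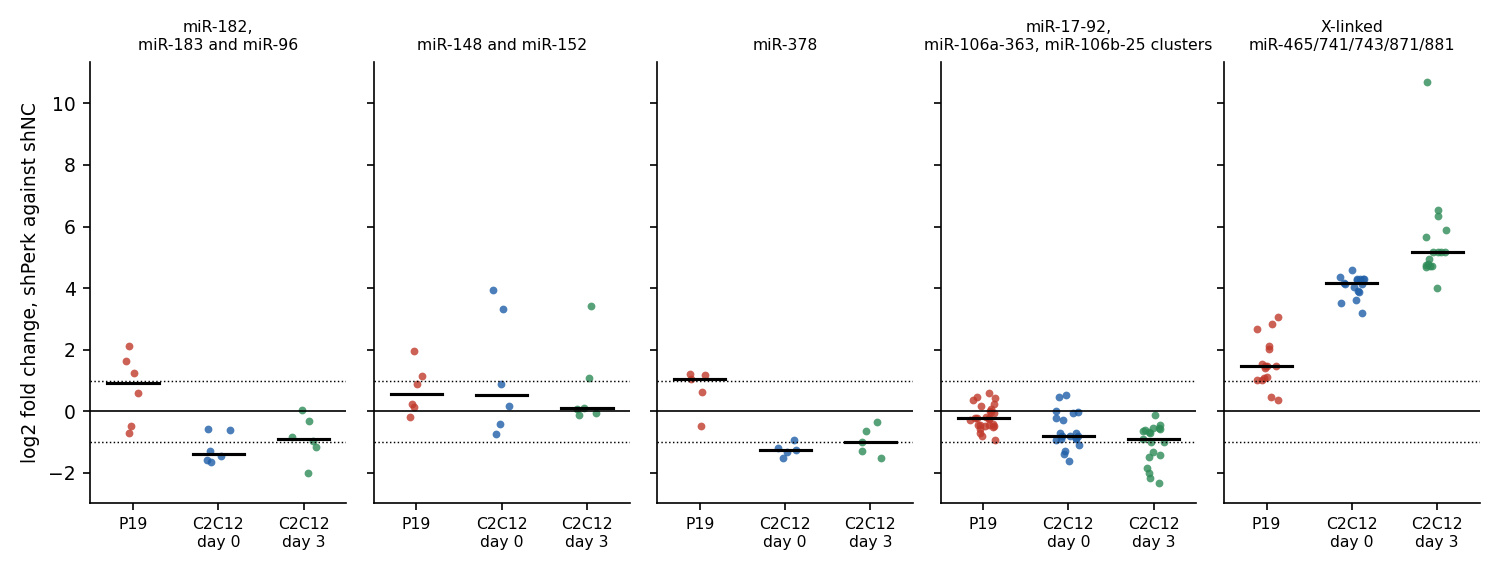
Log2 fold change of shPerk against shNC (y axis) in P19, C2C12 at day 0 and C2C12 at day 3 (x axis) for members of 5 miRNA lists that are listed in P19 and, for C2C12, were tested there; each point is 1 miRNA, black bars are medians of the points drawn, and dotted lines mark the limits. miR-148a-3p is the highest P19 point of its list at 1.97, and the miR-183 cluster and miR-378 have medians above 0 in P19 and below 0 in both C2C12 pairs.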

How the data were processed

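Small RNA libraries of 8 samples were sequenced by a company, which ligated linkers to both RNA ends, reverse-transcribed, amplified and gel-selected the product. For the P19 pair the authors deposited RPM values per mature miRNA, scaled to reads on miRNAs, and for the C2C12 hairpin pairs the authors deposited read counts; the build is mm10 (GRCm38). How reads matching several miRNAs were counted is not given in the sources used here. The deposited fold changes, p-values and q-values were not used, and 0 value columns lacked a sample. The ATF4 pair was not used here.

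RPM values listed at 0 were set to 1 RPM and scaled with TMM factors (edgeR 4.0.16, R 4.3.3; Python 3.11.15, pandas 2.3.3). A call was a log2 fold change beyond 1. No count test was run: the planned design assumed reads, which the RPM values do not hold as such, and 1 library a group gives no replicate error. In C2C12, miRNAs with at least 1 CPM in either library of a pair were kept and a prior count of 0.125 was used. The fold computation was tested on simulated data. RefSeq gave sequences and GENCODE vM21 the hosts; 573 of 696 miRNAs matched.

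Named miRNAs (93) were the 12 largest rises and 12 largest falls at a mean of 100 RPM or more, the 10 most abundant of shNC, the top 2 of each of 28 lists, and the complete miR-302 and miR-290 clusters as listed; others were named after their values were seen. Members and lists were chosen with earlier results of these data known. Alternatives were other scalings, pseudocounts, filters and limits.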

Additional observations from a re-analysis of the deposited data

Results flagged for a closer look

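The 9 miRNAs given here stand out because their log2 fold change was beyond 1 in P19 and beyond 1 in the opposite direction in C2C12 at both days; the difference between the cell lines was not tested. Higher in P19 and lower in C2C12 were miR-130a-5p (1.09 in P19), miR-133a-3p (1.67), miR-133b-3p (1.24), miR-138-5p (1.32), miR-147-5p (1.23), miR-500-3p (1.37) and miR-532-5p (1.28). These calls rest on TMM scaling: in RPM as deposited 1 of these 7, miR-133a-3p at 1.08, was beyond the limit. Lower in P19 and higher in C2C12 were miR-181b-1-3p (-1.28) and miR-7224-3p (-2.18). miR-532-5p, the most abundant, was at 534 RPM in shNC and 858 RPM in shPerk in P19, and in C2C12 had 140777 and 27509 reads at day 0 and 118438 and 35839 reads at day 3. miR-133a-3p, a muscle miRNA, was at 12.1 and 25.6 RPM in P19 and had 39096 and 1806 reads in C2C12 at day 3. The other 7 were at most 61.7 RPM in P19, and several were near the lowest value listed. In shNC and shPerk, miR-147-5p was at 1.01 and 1.57 RPM and miR-133b-3p at 1.14 and 1.79 RPM. miR-500-3p was at 3.28 and 5.61 RPM, and miR-181b-1-3p at 4.93 and 1.35 RPM. miR-7224-3p was at 12.25 and 1.79 RPM, and had 6 and 25 reads in C2C12 at day 3.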

How the results depend on the processing

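With 1 library a group there was no replicate error, and leaving out a replicate was not possible. No paired analysis was possible because each group holds 1 library. The planned test on reads was not run: the depth of the P19 libraries was only inferred from steps in the RPM values, and the test would compare 2 libraries, not the conditions. What the depth limits are miRNAs near 1 RPM.

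The count called higher (123 after TMM scaling) was 46 in RPM as deposited, 72 at a mean of 10 RPM or more, 42 at 100 RPM or more and 52 at a limit of 1.5, and the count called lower (124) was 247, 100, 58 and 74. The miR-302 cluster median (1.74) was 1.15 in RPM, 1.61 with upper-quartile factors and 1.60 with a pseudocount of 1 RPM. The miR-290 cluster median (-0.08) was -0.67 and -0.20 with the first 2 of these. The median of the list antisense to Rtl1 and nearby (-1.87) was -2.47, -2.00 and, at 100 RPM or more, -1.61. The miR-379/410 median (-1.78) was -2.38 and -1.91. The miR-200 family median (2.69) was 2.10 and 2.57. Median-of-ratios factors, 0 set to 0.5 RPM, identical values counted once and, added after seeing the data, TMM factors without Dlk1-Dio3 and miR-302 cluster (112 higher, 131 lower) kept every one of these counts within 1.5 times and medians within 0.1. Of 93 named miRNAs, 49 were beyond the limit, and 36 of them were also beyond it in RPM, that is 20 of 33 rises and 16 of 16 falls. RPM as deposited lowers every log2 fold change by the same amount, so the falls could not drop out. The 49 kept their sign under every scaling and pseudocount. For the scalings this was fixed in advance, because each shifts all miRNAs by 1 shared amount smaller than the limit. In C2C12, CPM scaling and a prior count of 2 kept the counts over all miRNAs tested within 1.5 times, but CPM scaling moved list counts further: called lower were 4 in place of 2 of the miR-183 cluster at day 3, and 8 in place of 4 of the miR-17-92, miR-106a-363 and miR-106b-25 clusters at day 0.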
